A study of Mus musculus with 18 samples.

Results

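The genes described here encode 9 chemokines that attract T cells: Ccl5, Ccl19, Ccl17, Ccl22, Cxcl16, Ccl3, Ccl4, Cxcl9 and Cxcl10. They were given as a list of names, chosen with earlier results of these data known. Each gene was read from the array probeset whose annotation holds that symbol alone, and from the probeset with the highest mean where a gene had several. All 9 were measured, out of 19938 genes with such a probeset.

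The cells were XCR1+ dendritic cells (DCs), a lineage specialised in presenting antigens of engulfed dead cells on MHC class I, sorted from the thymus of untreated B6 mice. CCR7+ cells had matured in the absence of infection and were CD117-, while CCR7- cells were immature and CD117+. Each stage was taken from 3 backgrounds, which were Ifnar1-KO mice that lack the type I interferon receptor chain IFNAR1 and were housed free of specific pathogens, wild-type mice kept germ-free (GF), and wild-type mice housed free of specific pathogens (CTRL). Each of the 6 groups had 3 Affymetrix mouse gene arrays, and the question set by the design was which genes change with maturation and whether this needs type I interferon signalling or the microflora. All cells were gated as CD11c+ MHCII+ XCR1+ CD8a+ and negative for CD11b and CD172a. Age, sex, and whether mice were pooled or arrays came from separate mice are not given in the labels, so the p-values measure only the spread between these arrays, which may be technical. Values are log2 intensities on the RMA scale, on which 1 unit is a doubling. They are compared between arrays for one gene and not between genes, whose probes differ.

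Chemokines are small secreted proteins that bind G protein-coupled receptors on leukocytes and steer their migration. In the thymic medulla, CCR4 and CCR7 on maturing thymocytes respond to chemokines made by DCs and epithelial cells, which bring thymocytes to the cells that test them for self-reactivity. CCL17 and CCL22 bind CCR4, CCL19 binds CCR7, CXCL16 is a membrane-anchored ligand of CXCR6, and CXCL9 and CXCL10 bind CXCR3. Interferons induce CXCL9 and CXCL10, interferon gamma chiefly the first, and NF-kappaB, which is activated downstream of CD40 and related receptors, acts on many chemokine genes.

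Several of the 9 genes are neighbours. In the RefSeq annotation of GRCm38.p6, Ccl22 (chr8:94745684-94751388) and Ccl17 (chr8:94809380-94812038) lie within 66.4 kb of each other with Cx3cl1 between them. Cxcl9 (chr5:92321331-92328079) and Cxcl10 (chr5:92346638-92348889) together span 27.6 kb. Ccl5 (chr11:83525778-83530518), Ccl3 (chr11:83647843-83649378) and Ccl4 (chr11:83648624-83664683) lie in a cluster of 138.9 kb that also holds Ccl9 and Ccl6. The annotated ranges of Ccl3 and Ccl4 overlap. Cxcl16 (chr11:70454389-70459984) is elsewhere on chromosome 11 and Ccl19 (chr4:42754525-42756365) is on chromosome 4.

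Promoter sequences are shown for both neighbouring pairs. Ccl22 and Ccl17 both rose with maturation, while Cxcl9 fell and Cxcl10 was not called. The Cxcl10 change was -1.02 in GF and -0.88 in CTRL, the direction of Cxcl9, and 0.00 in Ifnar1-KO. Whether Cxcl9 and Cxcl10 differed in their change was not tested. RefSeq promoters of GRCm38.p6, 250 bases before to 50 after the start of transcription, were matched for 6 of the 9 genes; Ccl4, Ccl5 and Cxcl16 are named only. Both strands were searched for 4 motifs: kappaB (GGGA and CC with any 4 bases between), the interferon-stimulated response element (ISRE, GAAA and GAAA with any 2 bases between), the interferon gamma-activated STAT motif (GAS, TTC and GAA with any 3 bases between) and the STAT6 motif (TTC and GAA with any 4 bases between). Capitals mark the matches, and each sequence runs 5′ to 3′ on the strand of its gene.
Cxcl10 (chr5:92348840-92349139, minus strand): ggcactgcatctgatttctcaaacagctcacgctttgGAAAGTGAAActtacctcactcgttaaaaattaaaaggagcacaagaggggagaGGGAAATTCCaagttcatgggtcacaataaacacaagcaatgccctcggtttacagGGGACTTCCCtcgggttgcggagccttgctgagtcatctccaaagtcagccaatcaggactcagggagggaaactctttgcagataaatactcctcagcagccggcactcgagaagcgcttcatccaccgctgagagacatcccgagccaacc
Cxcl9 (chr5:92328030-92328329, minus strand): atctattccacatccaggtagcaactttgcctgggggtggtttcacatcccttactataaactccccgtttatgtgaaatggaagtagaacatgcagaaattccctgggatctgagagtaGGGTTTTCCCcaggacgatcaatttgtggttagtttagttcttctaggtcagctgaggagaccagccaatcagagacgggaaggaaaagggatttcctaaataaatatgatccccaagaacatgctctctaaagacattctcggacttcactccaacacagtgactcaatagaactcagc
Ccl22 (chr8:94745434-94745733, plus strand): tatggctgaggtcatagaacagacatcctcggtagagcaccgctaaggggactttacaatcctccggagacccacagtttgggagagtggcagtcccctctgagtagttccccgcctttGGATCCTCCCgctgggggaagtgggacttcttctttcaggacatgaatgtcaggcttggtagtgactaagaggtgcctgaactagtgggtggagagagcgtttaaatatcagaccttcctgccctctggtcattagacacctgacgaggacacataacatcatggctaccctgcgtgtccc
Ccl17 (chr8:94810203-94810502, plus strand): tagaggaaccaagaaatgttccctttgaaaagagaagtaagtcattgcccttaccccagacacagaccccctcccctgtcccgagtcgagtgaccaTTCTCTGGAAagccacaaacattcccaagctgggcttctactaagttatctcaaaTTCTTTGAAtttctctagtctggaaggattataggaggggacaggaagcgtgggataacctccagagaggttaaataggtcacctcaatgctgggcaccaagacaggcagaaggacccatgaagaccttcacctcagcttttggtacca
The Cxcl10 promoter held an ISRE match starting 213 bases before the start site and kappaB matches at 159 and 103 bases before it, none of which overlapped. Cxcl9 and Ccl22 each held 1 kappaB match, on the opposite strand. Ccl17 held a STAT6 match at 154 and a GAS match at 99 bases before its start. The start used for Ccl17 in the promoter table lies inside the range that RefSeq gives for the gene, so that the window shown is not the one before the outermost start. Of the members not printed, Ccl19 held a kappaB and an ISRE match and Ccl3 none of the 4 motifs. Over all 32851 promoters of the table, 20.7% held the kappaB motif, 3.44% the ISRE, 8.3% the GAS motif and 6.95% the STAT6 motif, against 4, 2, 1 and 1 of the 6 member promoters. These are matches of letters and not sites shown to be bound.

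The sort marker gene Ccr7 read 11.79 to 12.09 on the 9 CCR7+ arrays and 7.25 to 9.09 on the 9 CCR7- arrays. Xcr1 was lower in CCR7+ CTRL cells, at 6.31 to 6.48, than in CCR7- CTRL cells, at 11.44 to 11.56. Ifnar1 read 6.07 to 7.61 on CCR7+ Ifnar1-KO arrays and 7.61 to 7.82 on CCR7+ CTRL arrays, and 7.27 to 8.07 against 8.06 to 8.09 in CCR7- cells. Its probeset was therefore still detected in the knockout, and since the labels do not say which exons were disrupted or where its probes bind, it does not check the genotype. The CCR7+ Ifnar1-KO replicate 2 array stood apart: the mean level of 20 thymocyte markers was 7.47 there, against 5.13 to 6.04 on the other CCR7+ arrays and 4.48 to 5.10 on CCR7- arrays, and its Xcr1 level was 4.90. The CCR7- Ifnar1-KO replicate 2 array had the highest of the CCR7- values, 5.10. Over all genes it correlated with replicates 1 and 3 of its group at 0.9741 and 0.9737, against 0.9931 between those. Called thymocyte markers in CTRL maturation were 4 higher (Cd2, Cd8b1, Lat and Cd247) and 0 lower, from 1.76 ± 0.52 for Cd2 to 0.61 ± 0.17 for Cd247 (SE). Of 13 natural killer and cytotoxic T cell markers, 9 to 12 had a group mean within background, meaning at or below the 95th percentile of 1027 olfactory receptor genes in that group (4.28 to 4.46). The female-specific transcript Xist was lower in GF cells than in CTRL cells (-4.67 ± 0.61 in CCR7+ and -5.16 ± 0.61 in CCR7- cells, SE), and the Y-linked Eif2s3y was higher in both, so that sex-linked expression and germ-free housing cannot be told apart. Ifnar1-KO arrays carried signal for both Xist and Eif2s3y. Eif2s3y read 5.22 to 7.84 on Ifnar1-KO arrays and 3.34 to 3.49 on CTRL arrays. Sex-linked expression and the Ifnar1 knockout can therefore not be told apart either. In sorted populations, fewer cells of a type and less RNA per cell cannot be told apart.

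With maturation, 5 of the 9 chemokines rose, 3 fell and 1 was not called, with the same assignment in all 3 backgrounds. Ccl5, Ccl19, Ccl17, Ccl22 and Cxcl16 were higher in CCR7+ cells, Ccl3, Ccl4 and Cxcl9 were lower, and Cxcl10 did not pass the test. A gene was called where the adjusted p of limma's moderated test, Benjamini-Hochberg over all 19938 genes, was under 0.05. Over all genes, 9.42% were called higher and 10.8% lower in Ifnar1-KO, 9.53% and 11.8% in GF, and 12.6% and 13.6% in CTRL. For 8 of the 9 chemokines the 9 CCR7+ arrays did not overlap the 9 CCR7- arrays, of which 5 lay above and 3 below. That held for 15.3% of all genes, 7% above and 8.28% below. Since the 9 were chosen with earlier results of these data known, their counts beside the shares of all genes are no finding about them. The median change of the 9 was 0.80 in Ifnar1-KO, 0.76 in GF and 0.72 in CTRL, against medians over all genes of 0.00, 0.03 and 0.07. In each background this median is the change of Cxcl16 alone, so it does not describe a shift of the set. The plot of levels on each array shows both directions.

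**Figure D1:**
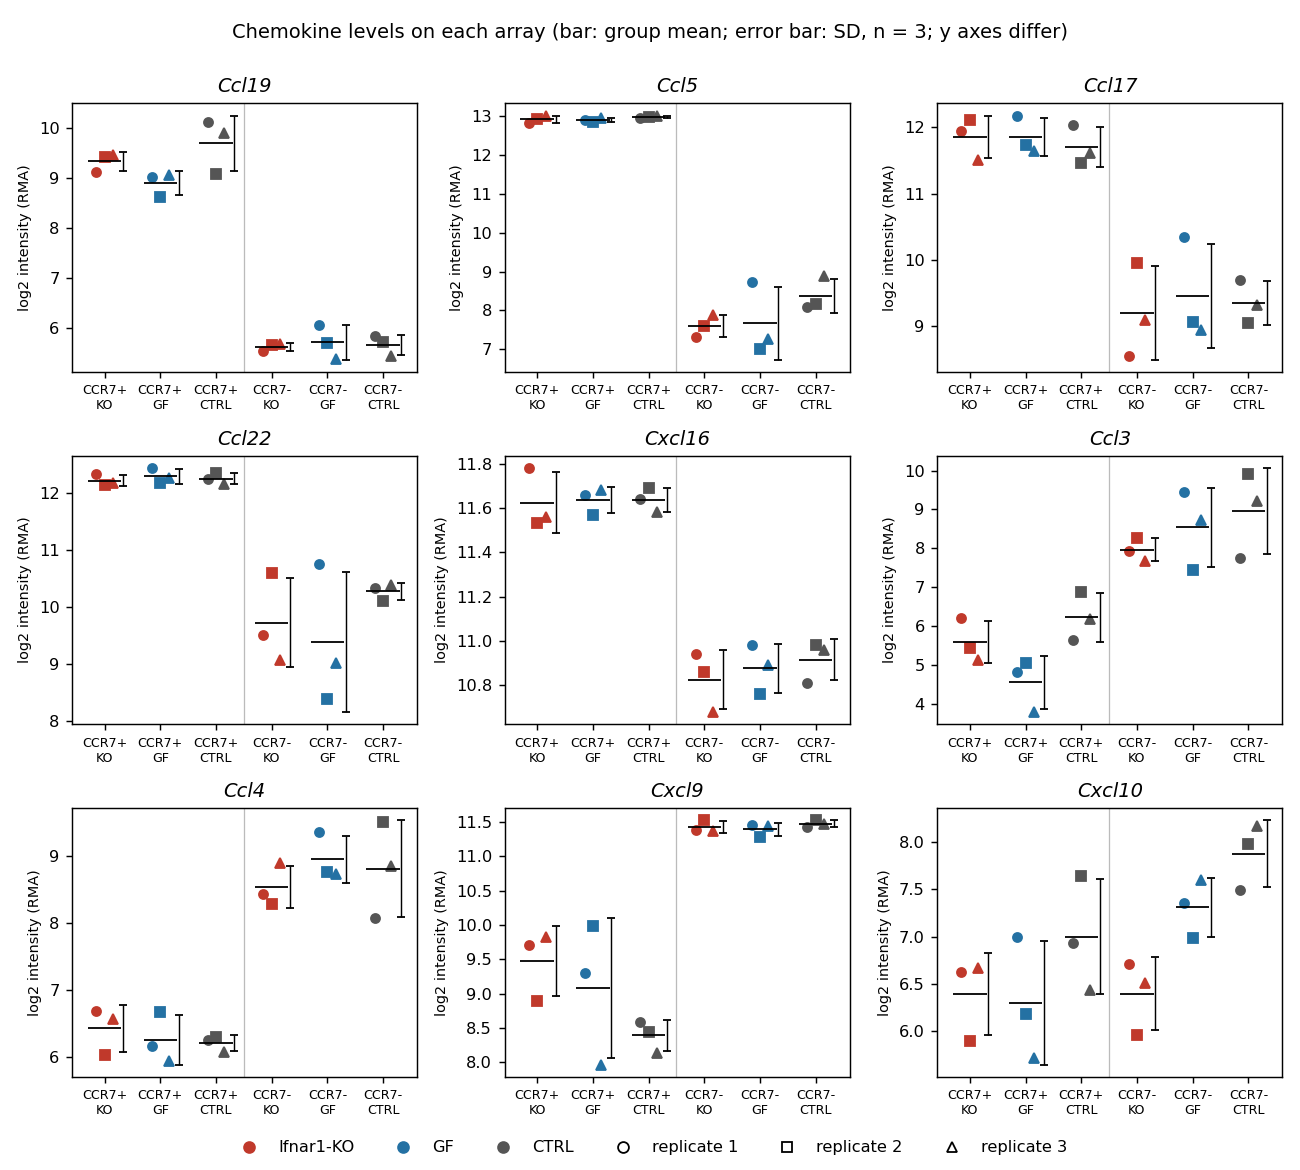
Level of each of the 9 chemokines on each of the 18 arrays, in log2 RMA intensity, with CCR7+ groups left of CCR7- groups; bars are group means and error bars SD (n = 3 arrays), and the y axes differ between panels. CCR7+ arrays lie above all CCR7- arrays for Ccl19, Ccl5, Ccl17, Ccl22 and Cxcl16, below them for Ccl3, Ccl4 and Cxcl9, and overlap them for Cxcl10.

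Ccl5, a chemokine that attracts effector and memory T cells, showed the largest change of the 9. In CCR7+ cells it read 12.83, 12.93 and 13.02 on the Ifnar1-KO arrays, 12.91, 12.86 and 12.97 on the GF arrays and 12.96, 12.98 and 13.00 on the CTRL arrays. CCR7- cells gave 7.32, 7.60 and 7.89 in Ifnar1-KO, 8.74, 7.01 and 7.25 in GF and 8.09, 8.15 and 8.88 in CTRL. The 9 CCR7+ arrays thus lay within 0.19 of each other, and the CCR7- arrays spread over 1.87. The CCR7+ values were close to the top of the measured range: 5, 5 and 4 of the 19938 genes read higher in the Ifnar1-KO, GF and CTRL groups, and the highest gene of any array read 13.26 to 13.39. Differences between backgrounds in CCR7+ cells, and the changes with maturation, could therefore be compressed, which was not tested. Ccl5 rose with maturation by 5.33 (40.1-fold) in Ifnar1-KO, 5.25 (38.0-fold) in GF and 4.61 (24.4-fold) in CTRL (SE 0.33 each, adjusted p from limma 2.84e-08, 3.32e-08 and 1.05e-07). T cells and natural killer cells also make CCL5. Without both Ifnar1-KO replicate 2 arrays, which had the high thymocyte level, the Ifnar1-KO change was 5.32. The mean level of the 20 thymocyte markers was also higher in CCR7+ than in CCR7- cells of every background, at 6.06 in CCR7+ and 4.77 in CCR7- Ifnar1-KO cells, 5.65 in CCR7+ and 4.60 in CCR7- GF cells, and 5.58 in CCR7+ and 4.61 in CCR7- CTRL cells. The part of these markers in the Ccl5 change was not tested.

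Ccl19, which binds CCR7 and draws CCR7-bearing thymocytes, T cells and DCs, rose next in CTRL cells. CCR7+ arrays gave 9.12, 9.41 and 9.46 in Ifnar1-KO, 9.02, 8.62 and 9.06 in GF and 10.12, 9.07 and 9.90 in CTRL. CCR7- arrays gave 5.53, 5.65 and 5.68 in Ifnar1-KO, 6.06, 5.69 and 5.37 in GF and 5.83, 5.71 and 5.43 in CTRL. No array of one stage reached the other, and the CCR7- arrays of the 3 backgrounds were mixed. The rise was 3.71 (13.1-fold) in Ifnar1-KO, 3.19 (9.14-fold) in GF and 4.04 (16.4-fold) in CTRL (SE 0.23, adjusted p from limma 3.30e-08, 1.42e-07 and 1.31e-08). The gene has 5 probesets on the array and near-identical copies in the mouse genome, whose transcripts these probes may not separate. All 5 probesets had higher means in CCR7+ cells, by 3.71 to 4.20 in Ifnar1-KO, 3.19 to 3.52 in GF and 4.04 to 4.73 in CTRL. Ccl19 and its receptor gene Ccr7 were thus both higher in the same sorted cells; Ccr7 was a sort marker and its change of 2.996 in CTRL is no finding.

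The CCR4 ligands Ccl22 and Ccl17, which attract CCR4-bearing thymocytes, T helper and regulatory T cells, were already well above background in CCR7- cells and rose further. Ccl22 read 12.33, 12.15 and 12.18 in CCR7+ Ifnar1-KO cells, 12.44, 12.17 and 12.27 in CCR7+ GF cells and 12.24, 12.35 and 12.16 in CCR7+ CTRL cells. In CCR7- cells it read 9.503, 10.59 and 9.07 in Ifnar1-KO, 10.75, 8.38 and 9.01 in GF and 10.34, 10.10 and 10.38 in CTRL. As with Ccl5, the CCR7+ arrays were tight, within 0.30, while the CCR7- arrays spread over 2.37, most of it in Ifnar1-KO and GF. The change of Ccl22 was 2.501 (5.66-fold) in Ifnar1-KO, 2.91 (7.53-fold) in GF and 1.98 (3.94-fold) in CTRL (SE 0.45, adjusted p from limma 0.000787, 0.000198 and 0.00408). Without CCR7- GF replicate 1, the GF change was 3.60.

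Ccl17 read 11.95, 12.12 and 11.51 in CCR7+ Ifnar1-KO cells, 12.18, 11.74 and 11.65 in CCR7+ GF cells and 12.04, 11.46 and 11.62 in CCR7+ CTRL cells. CCR7- cells gave 8.55, 9.95 and 9.09 in Ifnar1-KO, 10.35, 9.06 and 8.94 in GF and 9.69, 9.04 and 9.31 in CTRL. The lowest CCR7+ array stood above the highest CCR7- array, which was GF replicate 1. Ccl17 rose by 2.66 (6.32-fold) in Ifnar1-KO, 2.40 (5.29-fold) in GF and 2.36 (5.14-fold) in CTRL (SE 0.37, adjusted p from limma 8.39e-05, 0.000203 and 0.000211). Cx3cl1, the chemokine gene between Ccl22 and Ccl17, also rose in CTRL by 2.29 ± 0.37 (SE, adjusted p from limma 0.000264). It read 6.64 to 6.75 in CCR7+ CTRL cells and 4.19 to 4.50 in CCR7- CTRL cells, where its mean of 4.39 was just above background.

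Cxcl16, whose membrane-bound form holds and whose shed form attracts CXCR6-bearing T cells, changed least of the called genes. It spanned 11.53 to 11.78 with a median of 11.65 on the 9 CCR7+ arrays, and 10.68 to 10.98 with a median of 10.89 on the 9 CCR7- arrays. The gap is small but clear of the spread, which was under 0.30 in each stage. Cxcl16 rose by 0.80 in Ifnar1-KO, 0.76 in GF and 0.72 in CTRL (SE 0.09, adjusted p from limma 9.11e-06, 1.41e-05 and 2.11e-05), that is by 1.74-fold, 1.69-fold and 1.65-fold. A rule that also asked for a log2 change of at least 1 would leave it out and call 7 of the 9. Of 4 listed genes that cleave or shed chemokines, Adam17 (-0.91 ± 0.19, SE) and Dpp4, a peptidase that trims chemokines (-0.56 ± 0.15, SE), fell in CTRL. Adam17 also fell in GF (-0.77 ± 0.19, SE) and was not called in Ifnar1-KO (-0.36, adjusted p from limma 0.244), and Dpp4 was called in neither (-0.41 in GF and -0.30 in Ifnar1-KO). Adam10, the protease that sheds CXCL16 in unstimulated cells, was not called, with changes of 0.65 in Ifnar1-KO, 0.54 in GF and 0.31 in CTRL, although its CCR7+ arrays lay above its CCR7- arrays in each.

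**Figure D2:**
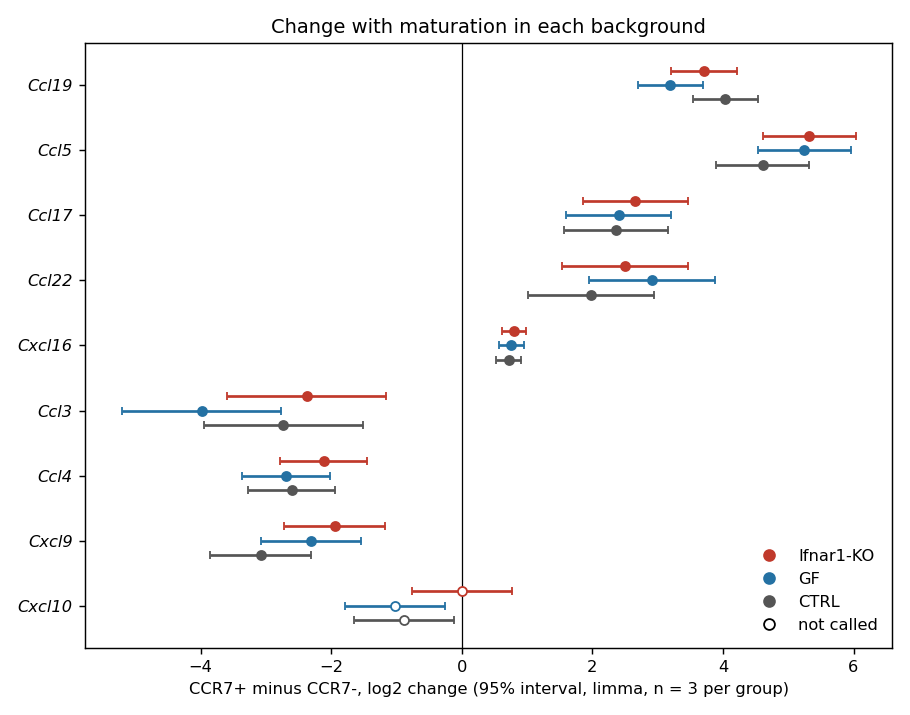
Change of each chemokine with maturation (CCR7+ minus CCR7-, log2) in each background, as the limma estimate with its 95% interval (n = 3 arrays per group); filled points were called. The intervals of 8 chemokines lie clear of 0 in all 3 backgrounds, from Ccl5 with a rise of 5.33 in Ifnar1-KO to Ccl3 with -3.98 in GF, and Cxcl10 is open throughout.

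The inflammatory chemokines Ccl3 and Ccl4, which attract monocytes and T cells, both fell. Ccl3 read 6.20, 5.44 and 5.13 in CCR7+ Ifnar1-KO cells, 4.81, 5.06 and 3.79 in CCR7+ GF cells and 5.63, 6.88 and 6.18 in CCR7+ CTRL cells. CCR7- cells gave 7.94, 8.27 and 7.68 in Ifnar1-KO, 9.44, 7.44 and 8.74 in GF and 7.76, 9.92 and 9.21 in CTRL. It was the most variable member, with ranges of 3.09 over the CCR7+ and 2.49 over the CCR7- arrays, and CCR7+ GF replicate 3 lay below the background level of its group, 4.45. Ccl3 fell by 2.37 (5.18-fold) in Ifnar1-KO, by 3.98 (15.8-fold) in GF and by 2.73 (6.65-fold) in CTRL (SE 0.57, adjusted p from limma 0.00685, 9.66e-05 and 0.0021). Without CCR7- CTRL replicate 1, the CTRL change was -3.34. Without both Ifnar1-KO replicate 2 arrays, the change in Ifnar1-KO was -2.14 and no longer called (adjusted p from limma 0.0627).

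Ccl4 ranged from 5.94 to 6.68 on the 9 CCR7+ arrays, with a median of 6.25, and from 8.07 to 9.51 on the 9 CCR7- arrays, with a median of 8.77. The stages were more than 1 unit apart, and within each stage the 3 backgrounds overlapped. Ccl4 fell by 2.11 in Ifnar1-KO, by 2.69 in GF and by 2.60 in CTRL (SE 0.31, adjusted p from limma 0.000133, 1.26e-05 and 1.55e-05), or 4.32-fold, 6.46-fold and 6.08-fold. Ccl3 and Ccl4 thus moved opposite to Ccl5, which lies in the same gene cluster on chromosome 11. Ccl9, a further gene of that cluster, rose by 0.43 ± 0.15 in CTRL (SE, adjusted p from limma 0.0486).

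Cxcl9, a CXCR3 ligand induced above all by interferon gamma, fell with maturation. On CCR7+ arrays it read 9.71, 8.89 and 9.82 in Ifnar1-KO, 9.30, 9.98 and 7.97 in GF and 8.59, 8.45 and 8.14 in CTRL. On CCR7- arrays it read 11.38, 11.52 and 11.37 in Ifnar1-KO, 11.45, 11.28 and 11.44 in GF and 11.42, 11.52 and 11.48 in CTRL. Here the spread was reversed relative to Ccl5 and Ccl22: the CCR7- arrays lay within 0.24 and the CCR7+ arrays over 2.01. Cxcl9 fell by 1.95 (3.86-fold) in Ifnar1-KO, by 2.31 (4.95-fold) in GF and by 3.08 (8.45-fold) in CTRL (SE 0.36, adjusted p from limma 0.000937, 0.000209 and 1.21e-05).

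Cxcl10, the CXCR3 ligand that responds to type I as well as type II interferon, was the only one of the 9 not called. On CCR7+ arrays it read 6.62, 5.89 and 6.67 in Ifnar1-KO, 7.003, 6.18 and 5.71 in GF and 6.93, 7.64 and 6.43 in CTRL. CCR7- arrays gave 6.71, 5.96 and 6.51 in Ifnar1-KO, 7.36, 6.98 and 7.60 in GF and 7.49, 7.98 and 8.17 in CTRL. The stages overlapped in every background. The change was 0.00 in Ifnar1-KO (95% interval -0.76 to 0.77), -1.02 in GF (-1.78 to -0.25) and -0.88 in CTRL (-1.64 to -0.11), with adjusted p from limma of 0.998, 0.0572 and 0.0855. The GF and CTRL values lay near the threshold. The GF change was called under 5 of 17 alternatives, among them the replicate block (adjusted p 0.0485) and without CCR7+ GF replicate 1 (-1.37, adjusted p 0.0136, limma). The CTRL change was called under 2 of 17, with array weights (adjusted p 0.0238) and without CCR7+ CTRL replicate 2 (-1.20, adjusted p 0.0295, limma). Cxcl11, the other CXCR3 ligand on the array, had a mean within background in all 6 groups.

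Between backgrounds, none of the 9 chemokines was called at either stage. Ifnar1-KO minus CTRL called 0 of 9 in CCR7+ cells, where limma called 0.015% of all genes, and 0 of 9 in CCR7- cells, where it called 0%. GF minus CTRL called 0 of 9 in CCR7+ cells (0.0301% of all genes) and 0 of 9 in CCR7- cells (0.015%). Sex-linked genes were among those called. Of 4 measured, 2 were higher and 1 lower in GF minus CTRL at each stage, and 1 was higher in CCR7+ Ifnar1-KO minus CTRL. With so few genes called anywhere, these counts say little of the chemokines in particular. At an unadjusted p under 0.05, the members numbered 1, 2, 2 and 0 in that order, and the genes 582, 1401, 1168 and 1260. Both sets of differences use the same CTRL arrays, so they are not independent. The 95% half-widths ran from 0.19 for Cxcl16 to 1.22 for Ccl3, so that a 2-fold lower level was within the interval for Ccl3 and Cxcl10 in CCR7- Ifnar1-KO cells among others. In Ifnar1-KO minus CTRL, 6 of the 9 intervals lay within 1 unit of 0 in CCR7+ cells and 5 in CCR7- cells; in GF minus CTRL, 4 and 5 did.

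**Figure D3:**
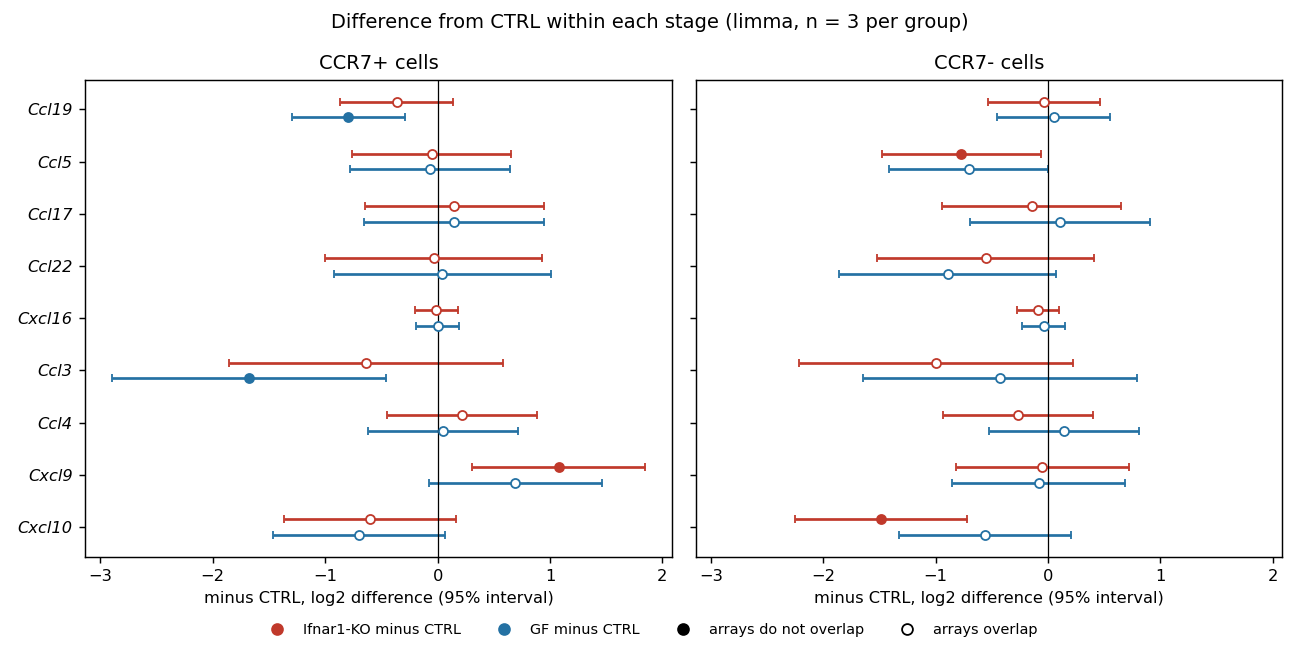
Difference of each chemokine from CTRL within each stage (log2, limma estimate with 95% interval, n = 3 arrays per group), for Ifnar1-KO and GF; filled points mark genes whose arrays did not overlap those of CTRL. The filled points are Ccl19 and Ccl3 in CCR7+ GF, Cxcl9 in CCR7+ Ifnar1-KO, and Ccl5 and Cxcl10 in CCR7- Ifnar1-KO, and none was called after adjustment over all genes.

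In CCR7- cells, Cxcl10 had the largest Ifnar1-KO difference of the 9. Its 3 Ifnar1-KO arrays (5.96 to 6.71) all lay below its 3 CTRL arrays (7.49 to 8.17), with the GF arrays between 6.98 and 7.60. The difference of Ifnar1-KO from CTRL was -1.48 ± 0.36 (SE, 95% interval -2.25 to -0.72), which is 2.80-fold lower, and its adjusted p over all genes was 0.681 (limma). Over 17 alternatives it stayed between -1.68 and -1.27 and was never called, with adjusted p between 0.284 and 0.9999. In CCR7+ cells the difference was -0.60 ± 0.36 (SE) and the arrays overlapped. Ccl5 was the other member whose CCR7- Ifnar1-KO arrays (7.32 to 7.89) lay below those of CTRL (8.09 to 8.88), by -0.77 ± 0.33 (SE, adjusted p from limma 0.681). Arrays were separate in this direction for 4.41% of all genes in that comparison. The other 7 differences ran from -0.998 to -0.04.

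In CCR7+ cells, Cxcl9 was higher on every Ifnar1-KO array (8.89 to 9.82) than on any CTRL array (8.14 to 8.59), by 1.08 ± 0.36 (SE, adjusted p from limma 0.99996). It was the only member with separate arrays there, a pattern seen in this direction in 3.58% of all genes. The remaining 8 differences ran from -0.64 to 0.22. Xcr1, which was lower in CCR7+ than in CCR7- CTRL cells, also varied between these arrays. It read 7.37, 4.90 and 8.36 on CCR7+ Ifnar1-KO replicates 1 to 3, against 6.31 to 6.48 on CCR7+ CTRL arrays. The part of such stage-linked levels in the Cxcl9 difference was not tested. In GF minus CTRL, Ccl19 was lower on every CCR7+ GF array (8.62 to 9.06) than on any CTRL array (9.07 to 10.12), by -0.79 ± 0.23 (SE, adjusted p from limma 0.558), although the nearest arrays differed by less than 0.01. Ccl3 was likewise lower in CCR7+ GF cells, at 3.79 to 5.06, than in CCR7+ CTRL cells, at 5.63 to 6.88 (-1.68 ± 0.57, SE, adjusted p from limma 0.691). These were 2 of 9 members, beside 5.54% of all genes with GF arrays separate and lower. In CCR7- cells no member's GF arrays were separate from those of CTRL, beside 14.8% of all genes, and the 9 differences ran from -0.89 to 0.14. The lowest, that of Ccl22, was -1.58 without CCR7- GF replicate 1 and -0.39 without CCR7- GF replicate 2. Ccl5 was called there only without CCR7- GF replicate 1, at -1.24 (adjusted p from limma 0.0213).

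Whether maturation itself differed between backgrounds was tested as a difference of changes. No member was called for Ifnar1-KO or for GF, where limma called 0% of all genes in each. At an unadjusted p under 0.05 there was 1 member in each, beside 901 genes for Ifnar1-KO and 660 for GF. For Cxcl9 the Ifnar1-KO change exceeded that of CTRL by 1.13 ± 0.51 (SE, adjusted p from limma 0.958), meaning that it fell less. For Ccl19 the GF change was -0.84 ± 0.33 relative to that of CTRL (SE, adjusted p from limma 0.999), meaning that it rose less. For Cxcl10 the Ifnar1-KO change exceeded that of CTRL by 0.88 (95% interval -0.20 to 1.96). The half-widths of the 9 intervals ran from 0.27 to 1.73. A difference of 1 unit in the maturation change, upward or downward, was thus within the interval for 8 of the 9 genes in each comparison.

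The CCR7- arrays differed among themselves in some chemokines that rose and in some that did not. Over the 9 arrays, levels spread over 2.37 for Ccl22, 1.87 for Ccl5, 1.80 for Ccl17, 0.69 for Ccl19 and 0.30 for Cxcl16. The spread was 2.49 for Ccl3, 2.21 for Cxcl10, 1.45 for Ccl4 and 0.24 for Cxcl9. On Ifnar1-KO replicates 1 to 3, Ccr7 read 7.85, 8.54 and 7.29 while Ccl22 read 9.503, 10.59 and 9.07. On the GF replicates Ccr7 read 9.09, 7.25 and 7.77 while Ccl22 read 10.75, 8.38 and 9.01. The CTRL replicates gave 9.03, 8.98 and 8.95 for Ccr7 and 10.34, 10.10 and 10.38 for Ccl22. Within Ifnar1-KO and within GF, the array with the most Ccr7 also had the most Ccl22. Ccl17 was highest on GF replicate 1 (10.35) and Ifnar1-KO replicate 2 (9.95), and Ccl5 on CTRL replicate 3 (8.88) and GF replicate 1 (8.74). Ccl19 stayed between 5.37 and 6.06 and was highest on GF replicate 1. Other arrays went the other way. Ifnar1-KO replicate 3 had the least Ccr7 of its group (7.29) but the most Ccl5 (7.89) and Ccl19 (5.68). CTRL replicate 3 had the least Ccr7 of its group (8.95) but the most Ccl22 (10.38). The part of the Ccr7 level in the CCR7- differences between backgrounds was not tested.

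**Figure D4:**
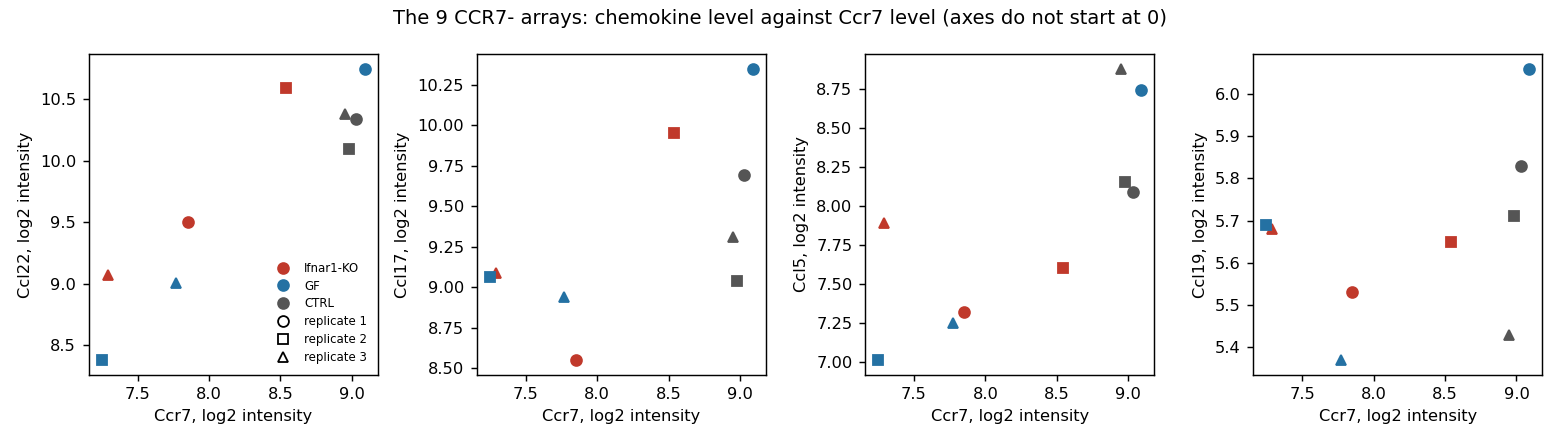
Levels of Ccl22, Ccl17, Ccl5 and Ccl19 against that of Ccr7 on the 9 CCR7- arrays (log2 RMA intensity, colour for background and shape for replicate; axes do not start at 0). GF replicate 1, with the highest Ccr7 level of 9.09, also has the highest Ccl22 and Ccl17 levels of these arrays, 10.75 and 10.35.

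Genes with the most similar pattern were taken for each called member as those with the highest Pearson correlation over the 18 arrays, among 9517 genes. With 2 stages far apart, such correlations mostly follow stage and are given as a description. Ccl5 was closest to Epsti1 (r = 0.997), Tnfrsf4 (0.996) and Mreg (0.995), and Ccl19 to Katna1 (0.988), Arhgap28 (0.985) and Bcl2l14 (0.985). For Ccl22 these were Apol7c (0.988), Cd63 (0.983) and Ccr7 (0.979), and for Ccl17 Zbtb10 (0.977), Tmem123 (0.974) and Tnfrsf1b (0.971). Cxcl16 followed Cd40 (0.989), Traf1 (0.988) and Relb (0.987), which encode a costimulatory receptor, an adaptor and an NF-kappaB subunit. Among the genes that fell, Cxcl9 was closest to Ppt1 (0.985), Plbd1 (0.98) and Ifi205 (0.978). Ccl4 was closest to Mastl (0.979), Il1b (0.975) and Cd84 (0.972), and Ccl3 to Hmgb3 (0.941), Il1b (0.922) and Nrros (0.916), so that the interleukin-1 beta gene was named for both.

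Of 28 other chemokine genes measured, 5 rose and 1 fell in CTRL maturation, with a median change of 0.16. Those that rose were Cx3cl1, Ccl11 (1.18 ± 0.18, SE), Cxcl1 (1.17 ± 0.22, SE), Ccl9 and Cxcl14 (0.32 ± 0.08, SE), and Cklf fell (-1.08 ± 0.19, SE). In Ifnar1-KO, 3 of the 28 rose and 1 fell, with a median change of 0.02. In GF, 3 rose and 2 fell, with a median change of -0.002. Between 16 and 18 of the 28 had a mean within background in each group. All 9 members lay above it in every group, the nearest being Ccl3 in CCR7+ GF cells (4.55 against 4.45). The 9 were chosen with earlier results of these data known, so this contrast is no finding about them. Among 10 measured receptors of the 9 chemokines, Ccr7, Ccrl2, an atypical chemokine receptor (1.56 ± 0.43, SE), and Ackr4, a scavenger of CCL19 (0.15 ± 0.05, SE), were higher in CTRL, and Cxcr3, the receptor of CXCL9 and CXCL10, was lower. The Ackr4 change is small. The median change over all genes in CTRL was 0.07, and the background level was 4.45 in CCR7+ and 4.28 in CCR7- CTRL cells. The receptors gave 3 higher and 1 lower in Ifnar1-KO, and 2 higher and 1 lower in GF. Cxcr3 read 4.59 to 5.01 in CCR7+ CTRL cells and 8.40 to 8.66 in CCR7- CTRL cells, a change of -3.72 ± 0.22 (SE, adjusted p from limma 1.61e-08). Cxcr3 and its ligand gene Cxcl9 were thus both lower in mature cells.

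Of 17 measured transcription factors known to act on chemokine genes, 11 rose and 1 fell in CTRL, with a median change of 1.003. The largest rises were in Stat4 (5.98 ± 0.17, SE), which relays interleukin 12, Irf1 (3.17 ± 0.25), an interferon gamma-induced factor, Relb (2.89 ± 0.21) and Irf4 (2.39 ± 0.30). Irf7, the interferon-induced factor that amplifies type I interferon, fell (-1.38 ± 0.25, SE). Among 13 measured cytokine and pattern receptors, 3 rose and 4 fell. Il4ra (3.33 ± 0.12, SE), through which interleukin 4 activates STAT6, Tnfrsf1b (3.18 ± 0.28) and Cd40 (1.81 ± 0.16) were higher. Tlr3 (-5.20 ± 0.22, SE), the interferon gamma receptor chain Ifngr1 (-2.85 ± 0.24), the tumour necrosis factor receptor Tnfrsf1a (-1.34 ± 0.22) and Tlr9 (-0.60 ± 0.14) were lower. In Ifnar1-KO the transcription factors gave 11 higher and 0 lower, and in GF 11 higher and 1 lower.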

How the data were processed

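RNA from sorted thymic XCR1+ DCs was amplified with a NuGEN whole-transcript kit and hybridised to 18 arrays, 3 per group. The values deposited by the authors are log2 intensities made with RMA in the oligo package, per the submitters' processing notes. Tool versions and a genome build were not given in the sources used here. Of 35556 probesets, 21789 with exactly 1 gene symbol in the platform annotation were kept, and 1621 with several and 12146 with none were left out; the probeset with the highest mean stood for a gene. No value was normalised again or filtered. Array number, and not a read depth, limits the precision; the median 95% half-width of a difference between groups was 0.27.

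Linear models with 1 mean per group over all 18 arrays were fitted with limma 3.58.1 (lmFit and eBayes; R 4.3.3, statmod 1.5.0) on all 19938 genes, with Benjamini-Hochberg adjustment within each of 9 comparisons, and were tested on simulated data. Figures and summaries used Python 3.11.15, pandas 2.3.3, numpy 2.4.6 and matplotlib 3.10.9.

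The 9 genes, the gene lists and the tests were chosen with earlier results of these data known. All 9 genes are named. From other lists, the called genes with the largest CTRL maturation changes are named, at most 4 per direction, besides receptors, sort genes, Ifnar1 and sex-linked genes. The nearest genes by pattern are the 3 with the highest correlation, among genes at or above the median mean and without predicted genes, clones and small RNAs.

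Whether replicate numbers pair CCR7+ with CCR7- arrays was checked by the correlation of their deviations from the group means, with 0.1 asked of every pair. It was 0.28, 0.32 and 0.24 in Ifnar1-KO, 0.27, 0.0035 and 0.030 in GF, and 0.19, 0.15 and 0.1001 in CTRL, so Ifnar1-KO and CTRL met the rule and GF did not. An r of unstated meaning closes the array code of 6 GF, 4 Ifnar1-KO and 2 CTRL arrays. The code letters of the replicate 2 CTRL pair are inverted, and the stage in the labels was used. Alternatives changed the fit (array weights, an eBayes trend with intensity, fits restricted to the groups compared, the code ending as a covariate, a replicate block), the scaling (median centring, quantile normalisation), the genes (those with at least the median level, all probesets singly or averaged), the arrays (each left out, and both Ifnar1-KO replicate 2 arrays left out together) or the call rule (a log2 change of at least 1).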

Additional observations from a re-analysis of the deposited data

Results flagged for a closer look

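Chemokine signal also appeared in probesets that were left out because their annotation names several genes. A probeset of the Ccl21 family, ligands of CCR7, averaged 6.14 in CCR7+ and 5.12 in CCR7- Ifnar1-KO cells, 7.04 in CCR7+ and 5.22 in CCR7- GF cells, and 6.77 in CCR7+ and 5.01 in CCR7- CTRL cells, against a background level of 4.28 to 4.46. This family has 4 such probesets with the same values. A probeset of the Ccl27 family averaged 5.98 in CCR7+ and 5.93 in CCR7- Ifnar1-KO cells, 6.61 in CCR7+ and 5.84 in CCR7- GF cells, and 6.59 in CCR7+ and 5.92 in CCR7- CTRL cells. The family has 2 further probesets, which have the same values as each other and lie closer between stages, at 5.52 in CCR7+ and 5.56 in CCR7- Ifnar1-KO cells, 6.08 in CCR7+ and 5.76 in CCR7- GF cells, and 5.99 in CCR7+ and 5.64 in CCR7- CTRL cells. These genes lie beside Ccl19 in several near-identical copies, so the copy that gave the signal cannot be told apart. The differences were not tested.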

How the results depend on the processing

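Of the 24 maturation changes that were called, none changed sign in 408 alternative fits and 407 stayed called; the exception was Ccl3 in Ifnar1-KO without both Ifnar1-KO replicate 2 arrays (-2.14). The other 57 results were not called, and 65 of their 1077 alternative fits turned sign while 8 were called. The number of members called with maturation was 7 to 8 in Ifnar1-KO and 7 to 9 in both GF and CTRL. It was 0 in every fit of Ifnar1-KO minus CTRL, of GF minus CTRL in CCR7+ cells and of both differences of changes, and 1 in GF minus CTRL in CCR7- cells only without CCR7- GF replicate 1 (range 0 to 1 over arrays left out). Cxcl10 in Ifnar1-KO maturation turned sign without CCR7- replicate 2 (-0.22), CCR7+ replicate 1 (-0.11) or CCR7+ replicate 3 (-0.14), and ranged from -0.22 to 0.25 over arrays left out. With the replicate block, the only call to change was Cxcl10 in GF maturation (-1.02, adjusted p from limma 0.0485); it was also called with an intensity trend (adjusted p 0.0439), among genes at or above the median level (adjusted p 0.0288) and without both Ifnar1-KO replicate 2 arrays (adjusted p 0.0417, all limma). The numbers of all genes called between backgrounds are small and unstable, at 0 to 7 for Ifnar1-KO minus CTRL in CCR7+ cells (3 in the reported fit), 0 to 5 in CCR7- cells (0), 1 to 13 for GF minus CTRL in CCR7+ cells (6) and 3 to 41 in CCR7- cells (3). Those for maturation were 2101 to 4571 in Ifnar1-KO (4036), 2150 to 4807 in GF (4256) and 2387 to 7209 in CTRL (5218). The causes were not tested. With 3 arrays per group, a difference between backgrounds whose interval held 0 could not be told from no difference. Differences whose interval lay clear of 0 also went uncalled after adjustment over all genes. An example is Cxcl10 in CCR7- Ifnar1-KO minus CTRL, at -1.48 (interval -2.25 to -0.72, adjusted p from limma 0.681). The lack of a call alone therefore does not limit the size of a difference. Ccl5 near the top of the scale may be limited in range.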

Other observations

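Ccl11, an eosinophil attractant that is not among the 9 genes, was chosen here after its values were seen. It read 4.67 to 5.11 on CCR7+ GF arrays, against 5.65 to 5.77 on CCR7+ CTRL arrays, a difference of -0.85 ± 0.18 (SE, adjusted p from limma 0.256).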
